A study of Mus musculus with 8 samples.

Results

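Long noncoding RNAs (lncRNAs) catalogued by Ensembl were followed in the mouse spinal cord after a contusion, a blunt impact injury. On the arrays used, every probe that carries an Ensembl mouse transcript identifier, control probes left out, was taken as a member. These were 8299 of the 150305 different non-control probes (5.52%), with exactly 1 probe of 60 bases for each transcript. The other probes were for NONCODE lncRNAs (55674), mRNAs (47074), circRNAs (37852), RefSeq noncoding RNAs (1393) and other lncRNAs (13).

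The samples came from 8 female mice aged 8 weeks, 4 control and 4 contusion, and held spinal cord segments T9 to T10 around the injury. The strain is not given in the sources used here. The labels do not settle what the groups were: controls are a sham group in the series' design text, yet normal cord in the sample descriptions. All 4 contusion titles say 3 days after injury, whereas the descriptions of contusion replicates 1, 2, 3 and 4 say 3, 4, 5 and 6 days. Groups are used here as the titles give them.

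LncRNAs are transcripts with no known protein product. Some act in the nucleus on neighbouring genes, some carry small nucleolar RNAs or microRNAs in their introns or exons, and many start close to a protein-coding gene on the other strand. In the spinal cord, imprinted and neuron-enriched lncRNAs are abundant, while others belong to the blood-derived cells that enter a lesion.

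Most Ensembl transcripts had no gene name in the files. Through shared accessions, bases shared with a RefSeq probe, RefSeq start windows (250 bases before to 50 after each gene's start, build GRCm38.p6) or microRNA hairpins, 82 transcripts were tied to 80 gene symbols. A further 35 lay on the strand opposite a named gene's start. The remaining transcripts are given by identifier, with the probe sequence where a result turns on it. Members were taken by identifier and not by RNA type. Some named ones belong to protein-coding or microRNA genes, such as Agfg2 and Mir137. The RNA type of the unnamed ones was not checked, so not every member is known to be a lncRNA.

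The first probes shown belong to some of the named lncRNAs that were called, not to all of those with the clearest differences. Capitals mark the run of bases also present in a RefSeq probe of that gene, and the Meg3 probe, which was named from the gene's start window, shares none. The 3 Pantr1 probes are the same stretch shifted by a few bases, so they are 1 measurement made 3 times, not 3 independent ones.
Morrbid, ENSMUST00000125354: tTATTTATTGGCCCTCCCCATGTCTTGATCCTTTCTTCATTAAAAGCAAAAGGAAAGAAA
Snhg5, ENSMUST00000183045: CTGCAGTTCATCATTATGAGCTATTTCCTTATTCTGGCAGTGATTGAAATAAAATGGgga
Pvt1, ENSMUST00000181657: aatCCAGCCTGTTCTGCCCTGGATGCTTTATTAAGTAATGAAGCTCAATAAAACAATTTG
Meg3, ENSMUST00000129245: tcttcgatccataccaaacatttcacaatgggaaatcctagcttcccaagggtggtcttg
Pantr1, ENSMUST00000181725: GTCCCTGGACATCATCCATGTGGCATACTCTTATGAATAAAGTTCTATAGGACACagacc
Pantr1, ENSMUST00000176154: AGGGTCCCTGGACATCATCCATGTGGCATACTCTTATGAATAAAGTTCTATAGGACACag
Pantr1, ENSMUST00000176977: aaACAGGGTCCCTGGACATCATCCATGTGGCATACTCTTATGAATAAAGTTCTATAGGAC
Mir124-2hg, ENSMUST00000189754: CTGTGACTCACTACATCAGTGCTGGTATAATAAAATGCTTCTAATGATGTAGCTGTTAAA
BC006965, ENSMUST00000124028: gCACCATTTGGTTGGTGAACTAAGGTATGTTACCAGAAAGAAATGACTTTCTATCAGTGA

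The next probes lie on the strand opposite the start of a gene, and are shown because their position ties an unnamed transcript to that gene. All of their bases fall inside the RefSeq start window of the gene named, so all are in capitals. By position, the probes opposite Chrm2, Zkscan17 and Mcrs1 also lie within the spans of 9330158H04Rik, 4933439C10Rik and 1700120C14Rik. They were not named for these genes.
Opposite Chrm2, ENSMUST00000159965, chr6:36387837-36387896, minus strand: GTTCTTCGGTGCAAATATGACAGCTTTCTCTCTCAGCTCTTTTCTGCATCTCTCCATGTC
Opposite Sidt1, ENSMUST00000181807, chr16:44332800-44332859, plus strand: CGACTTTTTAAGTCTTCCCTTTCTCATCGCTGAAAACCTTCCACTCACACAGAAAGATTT
Opposite Nrm, ENSMUST00000145804, chr17:35861109-35861168, minus strand: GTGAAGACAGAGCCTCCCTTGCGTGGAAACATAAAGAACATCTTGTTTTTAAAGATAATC
Opposite Mcrs1, ENSMUST00000187706, chr15:99251931-99251990, plus strand: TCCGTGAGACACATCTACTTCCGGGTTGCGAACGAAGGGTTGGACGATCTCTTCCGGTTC
Opposite Zkscan17, ENSMUST00000123388, chr11:59506793-59506852, plus strand: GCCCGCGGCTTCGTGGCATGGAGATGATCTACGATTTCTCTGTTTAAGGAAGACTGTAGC

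The last probes belong to unnamed transcripts with large differences or bright signal. Capitals mark either the 57 bases that the probes of ENSMUST00000209837 and ENSMUST00000210144 have in common or, in ENSMUST00000181506 and ENSMUST00000174287, the hexamer AATAAA.
ENSMUST00000136927: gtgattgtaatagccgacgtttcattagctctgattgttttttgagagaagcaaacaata
ENSMUST00000185152: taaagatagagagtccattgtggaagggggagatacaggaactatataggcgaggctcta
ENSMUST00000209837: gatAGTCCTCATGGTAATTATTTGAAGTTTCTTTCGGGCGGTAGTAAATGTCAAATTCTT
ENSMUST00000210144: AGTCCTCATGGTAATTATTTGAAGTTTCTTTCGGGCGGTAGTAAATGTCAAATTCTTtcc
ENSMUST00000129601: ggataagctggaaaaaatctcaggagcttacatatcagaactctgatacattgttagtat
ENSMUST00000214587: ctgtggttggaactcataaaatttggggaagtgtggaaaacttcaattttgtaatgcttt
ENSMUST00000181506: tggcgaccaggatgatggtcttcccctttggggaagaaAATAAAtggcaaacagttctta
ENSMUST00000174287: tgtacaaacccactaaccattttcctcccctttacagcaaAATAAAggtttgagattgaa

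A level below is the log2 intensity of a probe after subtraction of its array's 75th percentile (taken over non-control probes), so a level of 0 is the brightness of that percentile. Levels of different probes depend on how well each probe binds and are not abundances to be ranked. A difference is the contusion mean minus the control mean on this log2 scale, with limma's standard error (SE) and n = 4 arrays per group. A transcript is called where limma's p, adjusted by Benjamini-Hochberg over all 89087 features tested, is under 0.05.

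Across the 8 arrays the 75th percentile intensity was 203 to 251, no spot was saturated, and 72.9% to 75.4% of all probes were well above background. Slide 1 held control replicates 2, 3 and 4 with contusion replicate 1, and slide 2 held control replicate 1 with contusion replicates 2, 3 and 4. Among marker mRNAs, all 9 neuronal markers were lower after contusion. All 8 monocyte and macrophage markers were higher, with a mean level of -0.46 to 2.07 in control arrays and 4.66 to 5.06 in contusion arrays. All 5 markers of dividing cells and all 5 of red blood cells were also higher. The 6 skeletal muscle markers had a mean level of -0.985 to 1.189 in control arrays and -0.354 to 4.165 in contusion arrays, the highest in contusion replicate 1. In whole tissue, fewer cells of a type and less RNA per cell cannot be told apart, and the part of these markers in the differences below was not tested.

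Ensembl transcripts were detected less completely than mRNAs. On each array 60.2% to 63.3% of them were well above background by the scanner's flag, against 86.6% to 87.2% of mRNA probes, 65.9% to 68.5% of RefSeq noncoding probes and 49.7% to 55.3% of NONCODE probes. Of the 8299 transcripts, 4455 (53.7%) were well above background on all 8 arrays and 2247 (27.1%) on none. The filter, well above background on at least 4 arrays whatever their group, kept 5160. Of these, 5159 (62.2% of the members) were tested, since ENSMUST00000198104 had no usable contusion value, and 5 were tested with a value missing. The filter passed 34 transcripts through 1 group alone, which had to differ, and 3139 transcripts did not pass it.

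After contusion, decreases outnumbered increases among the Ensembl transcripts. Of the 5159 tested, 558 were higher (10.8%; 14.7% of all features) and 1214 were lower (23.5%; 23.9% of all features), by limma at an adjusted p under 0.05. Together these 1772 calls were 34.3% of the transcripts tested, against 38.6% of all features. The median difference was -0.076, beside -0.050 over all features. The groups did not overlap for 1658 transcripts (32.1%, against 38.7% of all features).

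At least a 2-fold change, a difference of 1 on the log2 scale, was measured for 132 of the transcripts called higher (2.56% of those tested; 3.36% of all features) and 110 of those called lower (2.13%; 1.47% of all features). Readings below background are included there. Among the 4455 transcripts well above background on all 8 arrays, the counts were 80 higher and 76 lower, and a difference of 2 or more was reached by 14 higher and 1 lower. At the other end, 705 of the 1772 called transcripts differed by less than 0.5. For the counts on all 8 arrays and for these 705, no share over all features is given here. They are not read as particular to Ensembl transcripts.

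Other RNA classes on the same arrays had other balances. Of the calls, 31.5% were increases for Ensembl transcripts, 23.7% for NONCODE lncRNAs, 43.7% for RefSeq noncoding RNAs, 38.7% for circRNAs and 50.5% for mRNAs. The share called was higher for brighter probes: in 4 equal bands of the Ensembl transcripts by mean level, dimmest first, it was 20.5%, 30.9%, 40.5% and 45.5%, while the median SE went from 0.229 to 0.0885. The number called higher was similar in these bands (131, 142, 149 and 136), and the number called lower went from 133 to 257, 373 and 451.

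**Figure D1:**
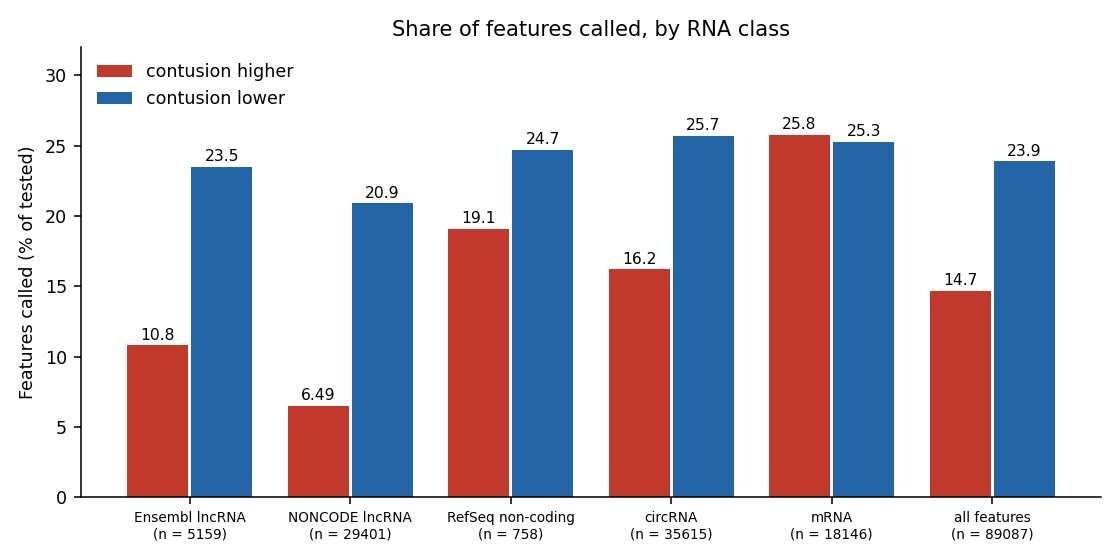
Bars give the percentage of tested features called higher (red) and lower (blue) after contusion in each RNA class, with the number tested under each name. Ensembl transcripts stand at 10.8% higher and 23.5% lower, mRNAs at 25.8% and 25.3%.

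Of 106 listed lncRNA genes, 10 could be tied to an Ensembl probe here and 9 were tested, through 11 transcripts. Of the 11, 5 were higher, 5 were lower and 1 was not called, with a median difference of 0.090. Pantr1 gave 3 of the 11, so by gene 5 were higher, 3 lower and 1 not called. Dlx4os, a homeobox-linked lncRNA, did not pass the filter. Malat1, Neat1, Gas5, H19 and Xist were among the listed genes to which no member could be tied. Since 8217 of the 8299 members had no gene name, this does not show that the arrays lack a probe for them.

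Morrbid, a lncRNA that prolongs the life of short-lived myeloid cells by repressing the death gene Bcl2l11, was the listed transcript with the largest difference. Its level was 0.51, 0.36, 0.56 and 0.29 in control replicates 1 to 4, and 1.56, 1.56, 1.53 and 1.64 in contusion replicates 1 to 4. The groups lay well apart, and the contusion arrays spread less than the controls. Morrbid was 2.21-fold higher, a difference of 1.15 ± 0.077 (SE; limma adjusted p = 9.67e-05). The RefSeq probe of Morrbid, which shares 59 of the 60 bases, differed by 1.37 ± 0.080 (limma adjusted p = 8.2e-05). Bcl2l11, which encodes the pro-apoptotic protein Bim, is the protein-coding gene nearest to Morrbid, 136116 bases away. Bcl2l11 was itself higher, by 0.50 ± 0.099 (limma adjusted p = 0.00475). The 8 monocyte and macrophage markers given above were higher too. Of 6 neutrophil markers only 1 was called higher, with a median difference of 0.335. Their mean level was 1.118 to 3.763 in control arrays and 1.931 to 3.941 in contusion arrays. Of 6 microglia markers 3 were called higher. Which cells carry Morrbid here was not tested.

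Among host genes of small RNAs and other broadly expressed lncRNAs, 3 of 4 transcripts were higher, with a median of 0.389. Snhg5 hosts small nucleolar RNAs. Its levels were 2.12, 2.44, 2.25 and 2.45 in controls and 2.68, 2.68, 2.72 and 2.85 after contusion, with no overlap, and it was higher by 0.415 ± 0.092 (limma adjusted p = 0.00787). The RefSeq probe of Snhg5 was not called (0.27 ± 0.132, adjusted p = 0.151), so the 2 probes did not give the same call. Pvt1 is a lncRNA whose nearest protein-coding gene is Myc, 47625 bases away. It stood at 0.12, 0.20, 0.12 and 0.03 in controls and at 0.49, 0.43, 0.44 and 0.57 after contusion. Every contusion array exceeded every control, and Pvt1 was higher by 0.36 ± 0.066 (limma adjusted p = 0.00306), while the Myc mRNA differed by 0.08 (adjusted p = 0.342). Dleu2, host of miR-15a and miR-16-1, was higher by 0.45 ± 0.124 (limma adjusted p = 0.0217). Zfas1, a snoRNA host at the 5' end of Znfx1, was not called (0.09 ± 0.087, 95% interval -0.11 to 0.29).

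The Dleu2 call was not held by every set of arrays. It missed the threshold without control replicate 2 (0.378, limma adjusted p = 0.0573), control replicate 4 (0.413, 0.0602), contusion replicate 1 (0.428, 0.0512) or contusion replicate 4 (0.372, 0.0547), and with slide as a block (0.399, 0.0758). The RefSeq probe of Dleu2 differed by 0.518 ± 0.084 (limma adjusted p = 0.00178).

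Meg3, the imprinted lncRNA expressed from the maternal allele of the Dlk1-Dio3 locus, was the only gene of the imprinted or X-linked list to which a member could be tied. Levels were 7.28, 7.40, 7.36 and 7.27 in controls and 6.68, 7.08, 6.83 and 6.75 after contusion. The lowest control lay above the highest contusion array, contusion replicate 2. Meg3 fell by 0.49 on the log2 scale (SE 0.094; limma adjusted p = 0.00399), and its 2 RefSeq transcripts differed by -0.625 and -0.513.

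In the neural and homeobox-linked group, 2 genes were lower (Pantr1 and Hoxd3os1) and 1 was higher (Foxd2os). Pantr1 is transcribed next to Pou3f3, the gene of the neural transcription factor Brn1. The probe of ENSMUST00000181725 gave 3.72, 3.80, 3.69 and 3.92 in controls and 3.18, 3.28, 3.21 and 3.00 after contusion, without overlap. It fell by 0.61 (SE 0.083; limma adjusted p = 0.000793), and the other Pantr1 probes gave -0.56 each, with adjusted p of 0.00171 and 0.00144. The Pou3f3 mRNA was lower as well (-0.31 ± 0.073, limma adjusted p = 0.0105). All 9 neuronal markers moved in the same direction as Pantr1.

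Hoxd3os1, antisense within the HoxD cluster, and Foxd2os, opposite the forkhead gene Foxd2, were called near the threshold. Hoxd3os1 was lower by 0.24 ± 0.081 on the log2 scale, at a limma adjusted p of 0.044. That call was lost without any 1 of control replicates 2, 3 and 4 or contusion replicates 1, 3 and 4 (-0.274 to -0.189, adjusted p up to 0.111) and with slide as a block (-0.231, 0.11). Foxd2os was higher by 0.35 ± 0.097 at an adjusted p of 0.0227. It missed the threshold without any 1 of control replicates 2 and 4 or contusion replicates 2, 3 and 4 (0.293 to 0.338, adjusted p up to 0.0634) and with slide as a block (0.289, 0.0822). Hoxd3 mRNA was lower (-0.49, limma adjusted p = 0.00313), and Foxd2 mRNA was not called (0.53, adjusted p = 0.276).

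**Figure D2:**
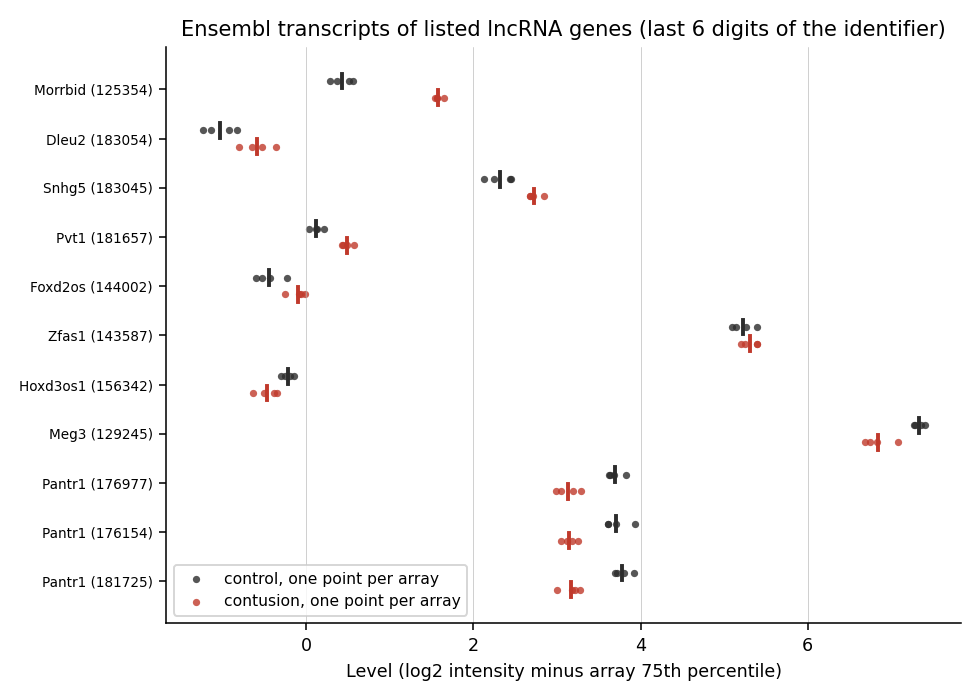
Points are the levels of single arrays (log2 intensity minus the array's 75th percentile) and vertical bars are group means, 4 control arrays in black and 4 contusion arrays in red, for the 11 Ensembl transcripts of listed lncRNA genes. Morrbid shows the widest gap upward, the 3 Pantr1 probes and Meg3 lie lower after contusion, and the groups overlap for Zfas1.

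Of all 61 tested transcripts with a gene name, 13 were higher, 16 were lower and 32 were not called, with a median of -0.126. By gene, 13 were higher, 14 were lower and 32 were not called. Mir124-2hg hosts miR-124, a microRNA enriched in neurons. It stood at 2.89, 3.21, 3.18 and 3.33 in controls and at 2.20, 2.31, 2.27 and 2.01 after contusion. The groups were apart by more than the spread within either, a fall by 0.95 on the log2 scale (SE 0.110; limma adjusted p = 0.000399), and the RefSeq probe with the same 60 bases gave -0.99. The transcript over the hairpin of Mir137, another neuronal microRNA, was measured in controls at -4.02, -4.37, -4.61 and -4.10 but at -6.02, -4.31, -4.76 and -6.81 after contusion. Only 2 of the 4 contusion arrays were well above background, the groups overlapped, and the difference of -1.20 ± 0.506 was not called (limma adjusted p = 0.0963).

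BC006965, a noncoding transcript whose nearest protein-coding gene is Sox9, 70854 bases away, had the largest decrease of the named transcripts. Levels were -1.45, -0.98, -1.32 and -0.84 in controls and -2.50, -2.66, -2.88 and -2.63 after contusion. No array of one group reached the other, and BC006965 fell by 1.52 (SE 0.147; limma adjusted p = 0.000216), with -1.77 ± 0.146 at its RefSeq probe. Sox9, a transcription factor of astrocytes and their precursors, went the other way, higher by 0.53 ± 0.067 (limma adjusted p = 0.000578).

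The named transcripts that were higher included 2310001H17Rik, whose nearest protein-coding gene lies 28842 bases away and encodes the leukocyte activation antigen Cd69. It stood between -1.29 and -0.62 in controls and between -0.04 and 0.01 after contusion, higher by 0.98 ± 0.134 (limma adjusted p = 0.000813). The Cd69 mRNA was lower (-0.69 ± 0.128, adjusted p = 0.00333), so this pair moved in opposite directions. Other named lncRNAs were not called: Chaserr, next to the chromatin remodeller gene Chd2, differed by -0.02 (95% interval -0.17 to 0.13), and the Ensembl transcript of Mir100hg, host of miR-100, by -0.06 (95% interval -0.25 to 0.13). Of the 4 RefSeq transcripts of Mir100hg, 3 were not called (-0.179 to -0.088) and 1 was lower (-0.615 ± 0.082, limma adjusted p = 0.000727).

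Transcripts read opposite a gene's start can share that gene's regulatory region. Of 25 tested, 19 faced a protein-coding gene whose mRNA was also tested. In these 19 pairs 9 transcripts (1 of them, opposite Zfp280d, seen on control arrays alone) and 12 mRNAs were called, 6 pairs had both called, and 5 of the 6 moved the same way. Across the 19 pairs the differences of transcript and mRNA had a Pearson r of 0.484 and a Spearman rho of 0.414. Both include the transcript opposite Zfp280d, which passed the filter through controls alone and so had to differ. Its -0.884 was the largest decrease of the 19 transcripts and became -0.072 under normexp background correction. Neither value was computed without it, so no conclusion is drawn from them. All points share the same 8 arrays.

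The transcript opposite Chrm2, the gene of the M2 muscarinic acetylcholine receptor, has its probe centred at -217.5 bases from the Chrm2 start. Its levels were -0.25, -0.34, -0.40 and -0.31 in controls and -1.01, -0.98, -1.23 and -1.15 after contusion. The transcript fell by 0.77 (SE 0.077; limma adjusted p = 0.000238), with a clear gap between the groups. Chrm2 mRNA was lower in the same arrays, at 1.51, 1.54, 1.41 and 1.49 in controls and 0.35, 0.39, 0.37 and 0.09 after contusion (-1.19 ± 0.083, adjusted p = 0.000105).

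The transcript opposite Sidt1, the gene of a SID1-family membrane protein, has its probe over the start itself, centred 8.5 bases inside. It stood at 3.25, 3.27, 3.13 and 3.11 in controls and at 2.62, 2.93, 2.64 and 2.62 after contusion. The highest contusion array, replicate 2, stayed below the lowest control, and the difference was -0.49 ± 0.089 (limma adjusted p = 0.00311). Sidt1 mRNA was lower by 0.82 ± 0.097 on the log2 scale (adjusted p = 0.000439).

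Opposite Nrm, which encodes the nuclear membrane protein nurim, the transcript was higher. Controls gave -1.79, -1.89, -1.64 and -1.88, and contusion arrays -1.12, -0.89, -1.02 and -1.26. These groups did not overlap, and the difference was 0.73 ± 0.097 (limma adjusted p = 0.000723), while Nrm mRNA was higher by 0.35 ± 0.068 (adjusted p = 0.0047).

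In other pairs the transcript changed and the gene did not follow. The transcript opposite Mcrs1, centred on its start, was higher by 0.58 ± 0.079 (limma adjusted p = 0.000783), and Mcrs1 mRNA was not called (0.08 ± 0.078). The transcript opposite Setdb1, the gene of a histone H3 lysine methyltransferase, was lower (-0.75 ± 0.122, limma adjusted p = 0.00186) with Setdb1 mRNA at 0.05 ± 0.065. Zkscan17, a zinc finger gene, was the pair called in opposite directions: the transcript was lower (-0.54 ± 0.065, limma adjusted p = 0.000479) and the mRNA higher (0.37 ± 0.067, adjusted p = 0.00316). The reverse also occurred, since Umps, an enzyme of pyrimidine synthesis, was higher by 1.08 with its opposite transcript not called (0.20 ± 0.109).

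The opposite-strand transcript with the largest difference faces the start of Gm51638, a gene whose function is not given here, and its probe lies inside Ecel1 at chr1:87142880-87142939 (minus strand, GRCm38.p6). It was measured at -0.84, -0.54, -0.84 and -0.98 in controls and at 1.52, 1.71, 1.24 and 1.23 after contusion. Every contusion array was more than 1 unit above every control, a 4.68-fold increase (2.23 ± 0.137, limma adjusted p = 8.2e-05). Ecel1, which encodes an endopeptidase induced in injured neurons, was higher by 0.81 (adjusted p = 0.00222).

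Where the named lncRNA gene overlaps a protein-coding gene, 6 of 13 pairs had both called, and all 6 moved the same way (r = 0.524, rho = 0.571 across the 13). Examples were the transcript of 9530026P05Rik with Adamts9, a secreted matrix protease gene (0.525 and 0.788), and that of A230072E10Rik with Wnk3, a kinase gene of chloride transport (-0.442 and -0.847). The RefSeq probe of A230072E10Rik was not called and lay on the other side of 0 (0.162 ± 0.375, limma adjusted p = 0.767), so its 2 probes did not give the same call. That of 9430041J12Rik, paired with Ttyh1, did likewise (0.124 ± 0.085, limma adjusted p = 0.287), against -0.487 at its Ensembl probe. The RefSeq probe of Hoxd3os1 was not called (-0.253, limma adjusted p = 0.0581). Those of 9530026P05Rik, 1110046J04Rik and 4930562F07Rik were called higher, as were their Ensembl probes. The Ensembl call of 1110046J04Rik was lost without control replicate 3 or contusion replicate 1 or 2 (limma adjusted p up to 0.0614). The table used gives gene ends and not exons, so whether such probes lie in exons or introns of the partner was not analysed here. There were 32 pairs with the nearest gene and no overlap, Pantr1 counted once. In these, 9 had both called and 3 of the 9 moved the same way (r = -0.0368, rho = 0.0795). The nearest genes lay from 68 bases (Atad3a) to 252131 bases (Ptger4) away, so many are not close neighbours. Distance was not taken into account.

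**Figure D3:**
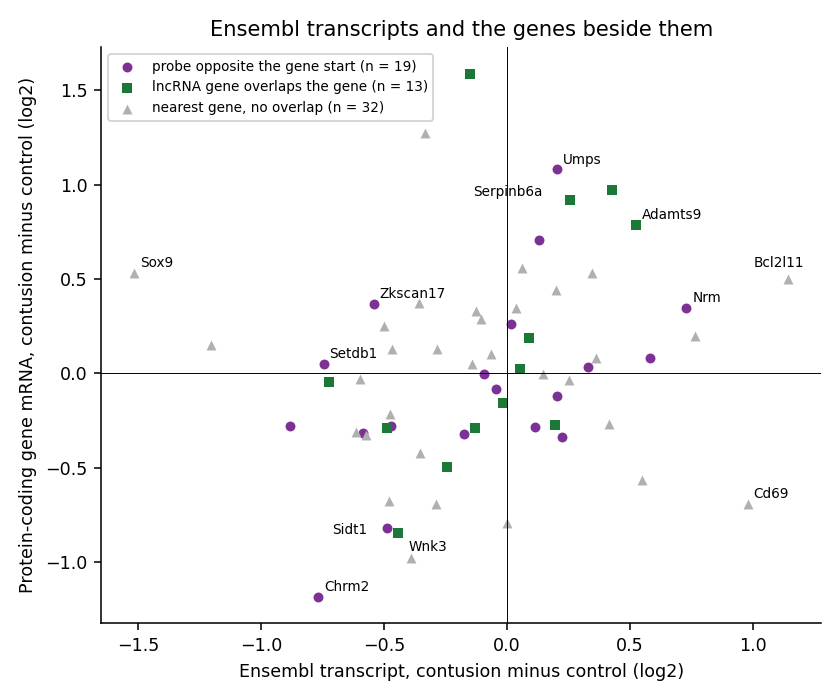
Each point is 1 Ensembl transcript and 1 protein-coding gene, with the log2 difference of the transcript on the x axis and that of the mRNA on the y axis; purple circles are probes opposite the gene's start (19), green squares overlapping genes (13) and grey triangles nearest genes without overlap (32). Chrm2 and Sidt1 lie in the lower left quadrant, Nrm in the upper right, and Zkscan17, Sox9 and Cd69 in the quadrants of opposite change.

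The largest increases of all were in transcripts without a gene name. ENSMUST00000136927 was well above background on 1 control array and on all 4 contusion arrays. Its levels were -4.73, -5.95, -7.07 and -7.60 in controls and -1.47, -1.09, -1.65 and -1.60 after contusion. It was at least 14.8-fold higher (limma adjusted p = 0.000385). Such a bound sets the contusion mean against, on each control array, the higher of the probe's own level and the lowest level well above background. That lowest level is taken over all probes of the array and is the most lenient cut-off. Here and below, each bound holds against this cut-off only, and a probe's own limit can be higher.

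ENSMUST00000185152 was well above background on all 8 arrays. Controls stood at -0.99, -2.53, -2.24 and -4.36 and contusion arrays at 1.32, 0.20, 1.45 and 1.61. The controls spread over more than 3 units, with control replicate 4 the lowest, and still did not reach the contusion arrays. The difference was 3.67 ± 0.656, 12.8-fold (limma adjusted p = 0.00288). Monocyte and macrophage markers had a mean level of 2.07, 0.87, 1.62 and -0.46 in control replicates 1 to 4, also lowest in replicate 4. That control was lowest as well for markers of dividing cells (-1.209), red blood cells (5.435), microglia (2.578) and astrocytes (6.024). In every other marker set another control was lowest. A link of this transcript to any cell type was not tested.

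ENSMUST00000175674 was 10.6-fold higher (3.41 ± 0.426, limma adjusted p = 0.000554), with controls at -3.21, -4.26, -4.60 and -5.32 and contusion arrays at -0.79, -1.61, -0.77 and -0.58. ENSMUST00000154615 was at least 6.35-fold higher and ENSMUST00000192635 at least 4.35-fold higher, each with 1 control array well above background.

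The probes of ENSMUST00000209837 and ENSMUST00000210144, which have 57 bases in common, gave closely matching increases. The first stood at -4.51, -4.19, -4.34 and -4.59 in controls and -1.41, -1.34, -1.77 and -1.91 after contusion, a difference of 2.80 ± 0.148 (limma adjusted p = 8.2e-05). The second gave 2.87 ± 0.263 (adjusted p = 0.000186). With nearly the same sequence on the same arrays, they are not 2 independent results.

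ENSMUST00000198461 had the smallest adjusted p of the Ensembl transcripts. Controls were at -4.24, -4.21, -4.22 and -4.38 and contusion arrays at -2.59, -2.53, -2.44 and -2.57. Neither group spread over more than a small part of that gap, and the difference was 1.73 ± 0.068, 3.33-fold (limma adjusted p = 4.62e-05).

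ENSMUST00000214587 cleared background on every control array but only 1 of the contusion arrays. It stood at -2.94, -3.83, -2.77 and -3.33 in controls and at -5.13, -7.06, -7.48 and -5.49 after contusion, at least 3.86-fold lower (limma adjusted p = 0.00255). ENSMUST00000191156, well above background on all 8 arrays, was 4.69-fold lower, from -3.11, -1.81, -2.18 and -1.93 to -4.31, -4.84, -4.11 and -4.70 (limma adjusted p = 0.000703). Control replicate 1 was the lowest control there, still above every contusion array.

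ENSMUST00000181506 combined a large decrease with little spread. Controls gave 0.46, 0.28, 0.36 and 0.41, and contusion arrays -1.28, -1.75, -1.48 and -1.29. The difference was -1.83 ± 0.112, 3.55-fold (limma adjusted p = 8.2e-05). ENSMUST00000211689, the brightest of the 12 largest decreases, went from 1.99, 2.46, 2.13 and 2.50 to 0.83, 0.72, 0.69 and 0.60 (-1.56 ± 0.124, adjusted p = 0.000139). ENSMUST00000146550, ENSMUST00000193062 and ENSMUST00000159032 also had small p-values, at -1.42, -1.22 and -1.09.

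**Figure D4:**
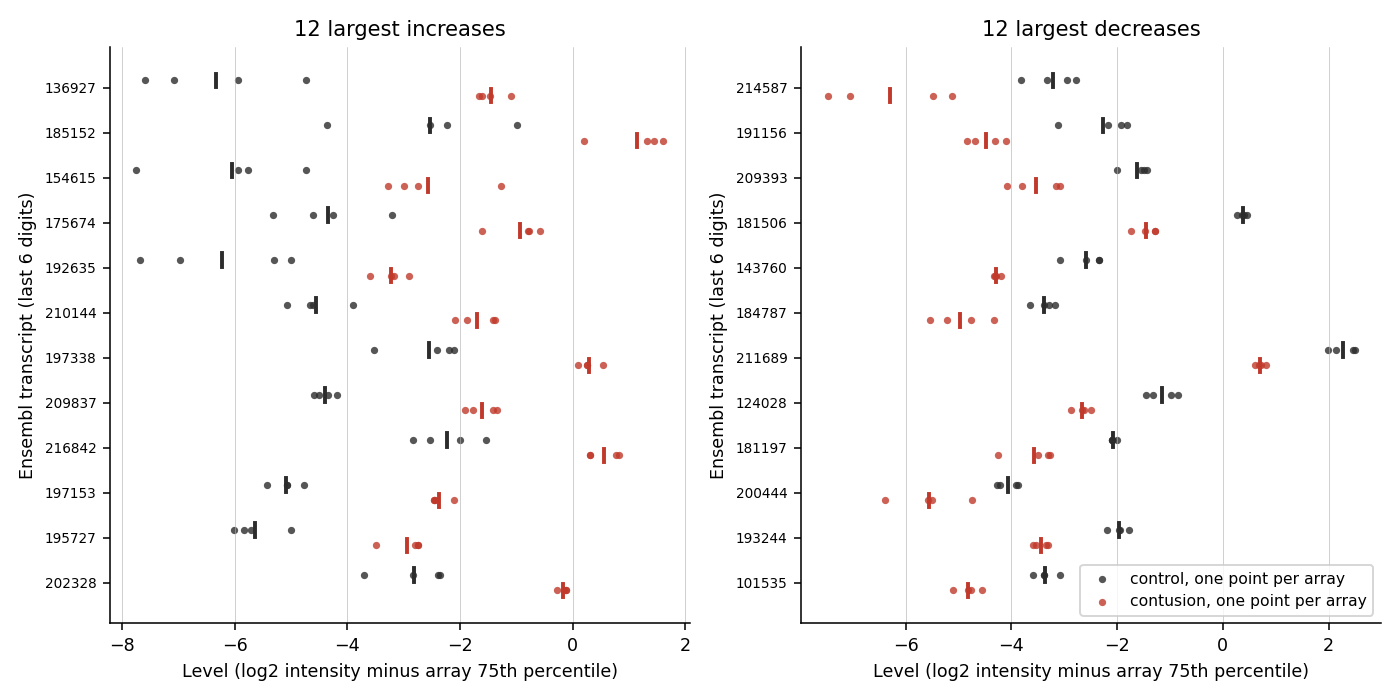
Points are single arrays and vertical bars group means of the level (log2 intensity minus the array's 75th percentile), 4 control arrays in black and 4 contusion arrays in red, for the 12 largest increases (left) and 12 largest decreases (right) among called transcripts without overlap and with signal in both groups. Controls spread widely in some of the largest increases, as in ENSMUST00000185152, and little in others, as in ENSMUST00000209837. Among the decreases the standard deviation of the controls ran from 0.051 (ENSMUST00000181197) to 0.588 (ENSMUST00000191156).

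The size of these differences depended on the background correction. With normexp background correction, an offset of 50 and quantile scaling, ENSMUST00000136927 differed by 1.19, ENSMUST00000185152 by 2.49 and ENSMUST00000214587 by -0.45. For 10 of the 12 largest increases and 10 of the 12 largest decreases the difference became smaller by more than 1.5 times, although all 24 stayed past the threshold. The brighter Morrbid (1.09) and ENSMUST00000211689 (-1.42) changed little.

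Signal on the arrays of 1 group alone was rare. Of the 8299 transcripts, 14 were well above background on all 4 contusion arrays and on 0 control arrays, and 20 the reverse. These passed the filter only through the group where they are high, so they had to differ: the adjusted p-values below accompany the bounds and support nothing. By the scanner's less strict flag for a positive and significant signal the counts were 7 and 5. No share over all features is given here beside these counts.

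ENSMUST00000129601 had the highest bound of the 6 named of the first kind. Its probe read -7.02, -7.89, -7.79 and -7.85 in controls, none well above background, and -3.66, -3.39, -4.00 and -3.04 after contusion. It was at least 3.85-fold higher (limma adjusted p = 8.2e-05). ENSMUST00000136749 was at least 3.18-fold higher, ENSMUST00000145448 2.7-fold, ENSMUST00000188147 2.35-fold, ENSMUST00000198737 2.29-fold and ENSMUST00000209288 1.77-fold, each as a lower bound. A NONCODE probe that shares at least 30 bases with ENSMUST00000198737 was higher by 0.91 ± 0.133 (limma adjusted p = 0.00111), beside a bound of 1.196 for the Ensembl probe on the same log2 scale.

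Among transcripts seen in controls alone, ENSMUST00000196720 went from -3.99, -3.90, -4.29 and -3.98 to -7.71, -6.20, -6.01 and -6.29. It was at least 2.3-fold lower (limma adjusted p = 0.000828). ENSMUST00000180898 was at least 2.01-fold lower. ENSMUST00000193126, ENSMUST00000211529 and ENSMUST00000163690 had bounds of 1.42, 1.27 and 1.26, and the first of these lost its call without contusion replicate 3 (adjusted p = 0.0555) and with slide as a block (0.09). ENSMUST00000181897 just missed the threshold (limma adjusted p = 0.0501). The transcript opposite the start of the zinc finger gene Zfp280d belonged here as well, with a bound of 1.17-fold, at -5.13, -5.26, -4.66 and -4.97 in controls and -5.98, -5.32, -5.74 and -6.53 after contusion. Its call (limma adjusted p = 0.0223) was lost under normexp (-0.072, adjusted p = 0.155), without control replicate 3 or 4 or contusion replicate 1 (-0.873 to -0.770, adjusted p up to 0.0569) and with slide as a block (-0.873, 0.0635).

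Of the 8 brightest Ensembl probes, 4 were lower after contusion and 4 were not called. ENSMUST00000143272 stood at 7.72, 7.78, 7.82 and 7.74 in controls and at 7.26, 7.34, 7.30 and 7.20 after contusion (-0.49 ± 0.060, limma adjusted p = 0.000541). ENSMUST00000185272, ENSMUST00000082388 and ENSMUST00000166636 differed by -0.65, -0.56 and -0.43. ENSMUST00000173523, the brightest, was not called (0.12 ± 0.124, adjusted p = 0.506), nor were ENSMUST00000192033, ENSMUST00000192904 and ENSMUST00000158863. The sign of ENSMUST00000192033 (0.10) turned under quantile scaling (-0.026), so no direction is given for it.

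ENSMUST00000174287, chosen after its values were seen as the bright probe with an increase, stood at 6.58, 6.76, 6.93 and 6.32 in controls and at 7.59, 7.85, 7.69 and 7.50 after contusion. The difference was 1.01 ± 0.138, 2.01-fold (limma adjusted p = 0.000835), with 0.98 under normexp.

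Some transcripts were measured precisely with differences close to 0. ENSMUST00000195353 stood at -0.33, -0.32, -0.32 and -0.33 in controls and at -0.30, -0.26, -0.34 and -0.30 after contusion. Its 95% interval was -0.09 to 0.15. ENSMUST00000206564, ENSMUST00000194929 and ENSMUST00000149078 gave -0.04, -0.03 and -0.02, with SEs of 0.053 to 0.055.

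Ensembl probes were also set against other probes with at least 30 bases in common. Of 41 pairs with a RefSeq probe, 19 had both probes called, all 19 the same way, and in 5 pairs 1 probe alone was called. The median absolute gap between the 2 differences was 0.0900. Of 120 pairs shared with NONCODE probes, 38 had both called, all the same way, and in 16 only 1 probe was called. Of 91 pairs among Ensembl probes, 31 had both called, all the same way, and in 13 only 1 was called. Some probes enter several of these pairs, such as that of ENSMUST00000214292, so the pairs are not independent. Some pairs parted, such as ENSMUST00000193106 (1.047, called) and ENSMUST00000193732 (-0.295, not called). All pairs share the same 8 arrays, and whether both probes of a pair read the same RNA was not tested.

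The hexamer AATAAA, the usual polyadenylation signal, was searched on both strands of every probe. It was present in the transcript's own direction in 13.4% of the 8299 Ensembl probes and on the opposite strand in 3.64%. The share in the transcript's direction was 13.3% for mRNA, 12.1% for RefSeq noncoding, 5.62% for NONCODE and 1.8% for circRNA probes of the same length. Of the 703 tested Ensembl transcripts with the hexamer 36.8% were called, and of the 4456 without it 34.0%. The median difference was -0.073 with and -0.076 without it.

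The differences kept their sign within both slides for 1770 of the 1772 called transcripts. This sign was fixed in advance where the groups do not overlap (478 called higher, 1072 called lower). The count is therefore no test of slide. With slide as a block 1350 of the 1772 stayed called, and 1281 were called in each of 8 fits that left out 1 array. Slide and the contusion days of the descriptions cannot be told apart, since contusion replicate 1, the one described as 3 days, alone lies on slide 1. Among 478 transcripts that were called higher without overlap, control replicate 4 was the lowest control in 200, replicate 1 in 122, replicate 2 in 103 and replicate 3 in 53. Among 1072 called lower without overlap, control replicate 2 was the highest control in 411 and replicate 4 in 377, and contusion replicate 4 was the lowest contusion array in 424. Control replicate 4 was also the lowest control for markers of monocytes and macrophages, dividing cells, red blood cells, microglia and astrocytes. Its part in these counts was not tested.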

How the data were processed

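RNA from 8 mouse spinal cords, 4 control and 4 contusion, was measured on 1-colour Agilent arrays. Labelling used Agilent's Low Input Quick Amp WT kit on column-purified total RNA, per the labels' protocols. Per the file headers, the deposited spot intensity had its background subtracted and its spatial trend removed by the scanner software, with no scaling across arrays. Feature Extraction 10.7 and limma are named in the submitters' processing notes. The deposited series table holds log2 values of the same probes and was used as an alternative only.

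From each log2 intensity the 75th percentile of that array's 150305 non-control probes was subtracted. Outlier spots were set missing. Kept probes exceeded background clearly on 4 or more of the 8 arrays, and the one of highest mean represented a feature. Groups were compared with limma 3.58.1 in R 4.3.3 (lmFit, then eBayes; a two-sided test with no term but group). Its p-values were adjusted by Benjamini-Hochberg over 89087 features, and those under 0.05 were calls. Precision is limited by the number of arrays, with a median SE of 0.125 for the differences of Ensembl transcripts. The code was tested on simulated data. Confidence intervals are at 95%.

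Probes were named by accession, by at least 30 bases shared with a RefSeq probe, by RefSeq start windows or by microRNA hairpins of GRCm38.p6. The headers name another build (mm9), so its coordinates were not used, and gene neighbours are those of the RefSeq table. Sequences are the array's own probes.

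Named transcripts were the 12 largest increases and decreases among called transcripts whose groups do not overlap and that have signal in both groups, up to 6 per direction seen on the arrays of 1 group, the 8 brightest, the 4 with the smallest adjusted p in each direction, the 4 uncalled with the smallest error and a difference under 0.1, and the listed lncRNA genes. The other transcripts with a gene name or an opposite gene, and 2 more, were added after their values were seen. The members and lists were chosen with earlier results of these data known. Replicate numbers did not pair the samples: the correlations of same-numbered deviations were -0.302 to -6.7e-05. Alternatives were other background correction and scaling, the deposited values, other filters, the mean of a feature's probes, slide or replicate number as a block, and leaving out each array.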

Additional observations from a re-analysis of the deposited data

Results flagged for a closer look

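Among 134 groups of 4 arrays examined, 11 had 1 array apart from the other 3, by the gap divided by the group's range. Chance gives about 1 in 20 such groups. None of the causes was tested.

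The widest gap was in ENSMUST00000198130, a transcript singled out after its values were seen. Control replicate 4 read 5.75 where the other controls read -3.65 to -3.42 and the contusion arrays -3.62 to -3.23. The difference of -2.24 ± 1.990 was not called (limma adjusted p = 0.416), and without control replicate 4 it was 0.086 (adjusted p = 0.624), so the apparent decrease rested on that array.

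In transcripts with signal in 1 group only, control replicate 1 read -7.02 in ENSMUST00000129601 (others -7.89 to -7.79) and -7.01 in ENSMUST00000198737 (others -7.95 to -7.81). These values lie below background. Contusion replicate 1 read -7.71 in ENSMUST00000196720 (others -6.29 to -6.01), also below background. Control replicate 3 read -3.44 in ENSMUST00000193126 (others -5.27 to -5.00).

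Among the other transcripts, control replicate 2 read 7.75 in ENSMUST00000082388 (others 7.49 to 7.53) and -2.003 in ENSMUST00000181197 (others -2.106 to -2.103), gaps that are small beside the differences between groups. Control replicate 1 read -2.38 in ENSMUST00000194052 (others -2.74 to -2.68). Contusion replicate 2 read -3.49 in ENSMUST00000195727 (others -2.80 to -2.74) and -2.11 in ENSMUST00000197153 (others -2.47 to -2.44). Contusion replicate 3 read -0.279 in ENSMUST00000202328 (others -0.144 to -0.118).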

How the results depend on the processing

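The number of Ensembl transcripts called stayed within 1.5 times the 1772 reported under every alternative run, from 1400 without control replicate 4 to 1867 without control replicate 1, and no called transcript changed sign in any of them. The increases ranged from 447 with slide as a block to 609, and the decreases from 951 to 1258. With the replicate number as a block 1447 were called (459 higher, 988 lower), 1390 of them shared with the 1772; the numbers do not pair the samples. The deposited values gave 1775 calls, 1695 of them shared. The count of transcripts seen on all arrays of 1 group and none of the other fell from 34 to 12 with the positive and significant flag. That flag is less strict by construction. With normexp and its offset of 50, all 13 of the named transcripts seen in 1 group alone differed by less, at -0.281 to 0.477, and 10 of them had an adjusted p under 0.05. The offset of 50 is added to intensities whose 75th percentile was 203 to 251, which shrinks differences of dim probes by construction. ENSMUST00000158863 was called with slide as a block (-0.269) and under normexp (-0.254). ENSMUST00000192033 was called lower under normexp (-0.137). ENSMUST00000181897 was called with the replicate block and without contusion replicate 1, 3 or 4. Signal over background limits the rest: 3139 transcripts were not tested, and of the 1290 in the dimmest of 4 bands 20.5% were called.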
